A study of Homo sapiens with 12 samples.

Results

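The knockdown clone shCXCR4 I was compared with the scrambled-hairpin control, Mock, in IGROV-1 cells, a long-cultured cell line from a human ovarian carcinoma. The comparison rests on 6 of the 12 arrays of the study, the 3 titled shCXCR4 (I) and the 3 titled IGROV - Mock, and on 19775 genes, each read on the probe set with the highest mean among those that carry a single gene symbol. The samples were chosen by their titles and the genes by their annotation, so no measured value entered the choice of groups or of the genes tested. The arrays were of the Affymetrix U133 Plus 2.0 type, and every value is a log2 intensity summarised over the probes of a probe set by RMA (robust multi-array average), so that a difference of 1 is a 2-fold change.

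Clone I is an individual clone of IGROV-1 cells that carries a SUPER RNAi plasmid with a short hairpin RNA against CXCR4. Clone II is another individual clone, described in the labels as transfected with shCXCR4 II. Parental cells are IGROV-1 without a plasmid. Mock cells carry a plasmid with a scrambled RNA and were kept as a pool of clones. The plasmids were introduced with a lipid reagent, stable cells were selected in 4 µg/ml puromycin for 30 days, and all cells were grown in RPMI medium with calf serum. The groups hold 3 arrays each, and the labels do not say whether the 3 came from separate cultures, so the p-values below measure the spread between arrays, which may be technical. Knockdown, the hairpin and the origin from a single cell cannot be told apart in a comparison of 1 clone with a pool.

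CXCR4 is a G protein-coupled receptor that binds the chemokine CXCL12 and directs the migration and survival of many cell types, and in epithelial ovarian cancer it is studied for its part in spread within the peritoneum. A short hairpin RNA is cut by Dicer into a small interfering RNA, which guides an Argonaute protein to the matching messenger RNA and lowers its level. Below, a gene "rose" or "fell" in clone I when its limma p, adjusted by Benjamini-Hochberg over all probe sets tested, was under 0.05. A gene is called separate when every clone I array lay above, or every one lay below, the whole Mock range.

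The 12 arrays had similar medians, from 4.25 to 4.39, and arrays of a group correlated at 0.996 to 0.998 across probe sets. The epithelial markers of the line were high, with 9 of 12 at a mean of at least 6 in both groups and an average over the list of 8.40 to 8.41 on the clone I arrays, against 8.44 to 8.48 on the Mock arrays. EPCAM, an epithelial adhesion protein, averaged 11.98 in clone I and 11.71 in Mock. PAX8, the lineage factor of Müllerian epithelium, averaged 10.20 in clone I and 10.05 in Mock. Of the 12 epithelial markers 2 rose, EPCAM and CDH1, and 2 fell, KRT7 among them (33.3% changed, against 20.6% of all genes). After each array was centred on its median, 0 rose and 2 fell. None of the 13 leukocyte markers measured reached a mean of 6 in either group, nor did 9 of 10 endothelial and 9 of 10 fibroblast markers. Over the leukocyte list 2 markers rose, CD3E and ITGAM, over the endothelial list PECAM1 rose and CDH5 fell, and over the fibroblast list 0 changed.

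The targeted gene was lower in every clone I array. CXCR4 read 7.06, 7.1 and 7.11 in the clone I arrays, against 8.51, 8.6 and 8.64 in the Mock arrays, on the log2 scale. The difference was -1.49 (SE 0.09, adjusted p = 8.47e-08, n = 3 each, limma), which left 35.6% of the Mock level, and all 3 probe sets of the gene fell. In RNA from a whole culture, fewer cells that carry a transcript and less of it per cell cannot be told apart. Against Parental the difference was -1.24, and clone I stood above clone II by 0.47 (adjusted p = 0.00899, limma). Of the 15 measured genes of the CXCR4 axis 2 others changed: CD74, the invariant chain and a receptor for the cytokine MIF, rose by 0.33, and GNAI3, an inhibitory G protein subunit, fell by 0.21. The ligand CXCL12 (4.85 in clone I and 4.74 in Mock, adjusted p = 0.449, limma) and the second CXCL12 receptor ACKR3 (3.12 in clone I and 2.96 in Mock, adjusted p = 0.188, limma) did not pass the test.

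Across all genes, 4081 of 19775 changed in clone I against Mock (20.6%, limma adjusted p under 0.05, n = 3 each), 1671 upwards (8.45%) and 2410 downwards (12.2%). The balance of rises and falls depends on the scaling: 40.9% of the changed genes rose on the authors' values, 53.3% once the arrays were quantile normalized and 23% once each array was centred on its median. Most changes were small, with a median size of 0.35 among changed genes and 3484 of the 4081 under 1.5-fold. A change of at least 2-fold was found in 151 genes (0.764%), 71 up and 80 down, and the groups were separate for all 151. In total 8228 genes (41.6%) were separate, 4000 with clone I above and 4228 with clone I below, so separation alone was common. Of the changed genes 4043 were separate, 1648 above and 2395 below Mock. The 38 changed genes with overlapping arrays all differed by at most 0.47, and 4185 separate genes did not pass the test, with a median difference of 0.18 in size.

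The direction went with the level of the gene. Among the 8598 genes with a mean of at least 6 in the higher group, 830 rose (9.65%) and 2084 fell (24.2%), with a median difference of -0.08. Among the 11177 dimmer genes, 841 rose (7.52%) and 326 fell (2.92%), with a median of 0.07. The interquartile range of the log2 values was 3.26 to 3.30 on the clone I arrays, against 3.38 to 3.43 on the Mock arrays, and its part in these counts was not tested. A gene could reach 6 through clone I or Mock alone. For the gene lists below, counts are to be read against 8.45% up and 12.2% down over all genes. A list mostly at or above 6, or mostly dimmer, is to be read against the shares of its level. The count at or above 6, after another scaling of the arrays or against Parental is given where it differs much.

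Mock also differed from untransfected cells, so the Parental values are given with the larger changes. Of the 151 genes, 122 changed in the same direction against Parental, 9 in the opposite direction and 20 did not pass. Over all genes 2868 differed from Parental (14.5%). The 151 were chosen on the same clone I arrays, so part of this agreement is built in. For 34 of the 71 strongest rises and 28 of the 80 strongest falls, the Parental mean lay nearer to clone I than to Mock. Against clone II, 66 of the 151 differed, beside 1031 of all genes (5.21%), and this comparison uses the same clone I arrays too.

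The 15 largest rises and 15 largest falls were picked among changed, separate genes with a mean of at least 6 in the higher group. UNC93A, a membrane protein of the UNC93 family, led the rises. UNC93A read 6.85, 7.05 and 6.88 in the clone I arrays, against 3.52, 3.91 and 4.23 in the Mock arrays, a rise of 3.04 (SE 0.14, adjusted p = 5.96e-09, limma). It lay well above Parental too, by 2.04. IL32, which encodes the pro-inflammatory cytokine interleukin 32, read 7.09, 7.25 and 7.16 in the clone I arrays, against 4.59, 4.83 and 4.4 in the Mock arrays, a 5.9-fold rise (2.56, SE 0.11, adjusted p = 3.36e-09, limma). The lowest clone I array stood more than 2 log2 units above the highest Mock array. Clone II was as high, at a mean of 7.08, and Parental was low, at 5.31.

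LGALS3, the gene of galectin-3, a lectin that binds beta-galactosides on the cell surface and in the matrix, read 10.74, 10.81 and 10.75 in the clone I arrays, against 8.66, 8.62 and 8.6 in the Mock arrays, and its difference was 2.14 against Mock, 2.63 against Parental and 0.83 against clone II. Of its 2 probe sets 1 passed the test. NPNT, nephronectin, a matrix ligand of integrin alpha8 beta1, read 8.5, 8.48 and 8.43 in the clone I arrays, against 6.61, 6.45 and 6.65 in the Mock arrays, and Parental averaged 6.24. The clone I arrays thus lay far above both controls. PHGDH, the first enzyme of serine synthesis, read 8.49, 8.47 and 8.48 in the clone I arrays, against 6.58, 6.52 and 6.63 in the Mock arrays (1.9, SE 0.07, adjusted p = 3.51e-10, limma).

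Other leading rises were large against Mock and small against Parental. NRCAM, a neuronal cell adhesion molecule of the immunoglobulin family, read 9.31, 9.25 and 9.26 in the clone I arrays, against 6.94, 6.92 and 7.01 in the Mock arrays, a difference of 2.32, while Parental averaged 8.72. BCL2L15, a member of the BCL2 family, was higher than Mock by 2.43 but lower than Parental (-0.38, adjusted p = 0.0047, limma). SYTL2, a synaptotagmin-like protein of vesicle transport, and SAMD5 rose by 2.07 and 2.03 against Mock and stood 0.41 and 0.54 above Parental. Of the 15 genes, 9 had a Parental mean nearer to clone I than to Mock, 14 rose against Parental as well, and 14 were also at least 2-fold above Mock in clone II. These counts reuse the clone I or Mock arrays on which the 15 were chosen, so part of the agreement is built in.

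Further leading rises included 2 secretoglobins, small secreted proteins of glandular epithelia. SCGB2A1 (mammaglobin B) rose by 2.02 and SCGB1D2 (lipophilin B) by 1.71. SIGLEC15, a sialic acid-binding lectin, rose by 1.72. HPSE, heparanase, the endoglycosidase that cuts heparan sulfate chains of the matrix, rose by 1.61, with 7.34, 7.3 and 7.26 in the clone I arrays, against 5.73, 5.6 and 5.73 in the Mock arrays. BEX2, of the brain-expressed X-linked family, rose by 1.72, and it is the 1 gene of the 15 that lies on the X chromosome. For each of these 5 genes clone I also stood above clone II, by 0.35 for BEX2 to 0.90 for SIGLEC15.

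**Figure D1:**
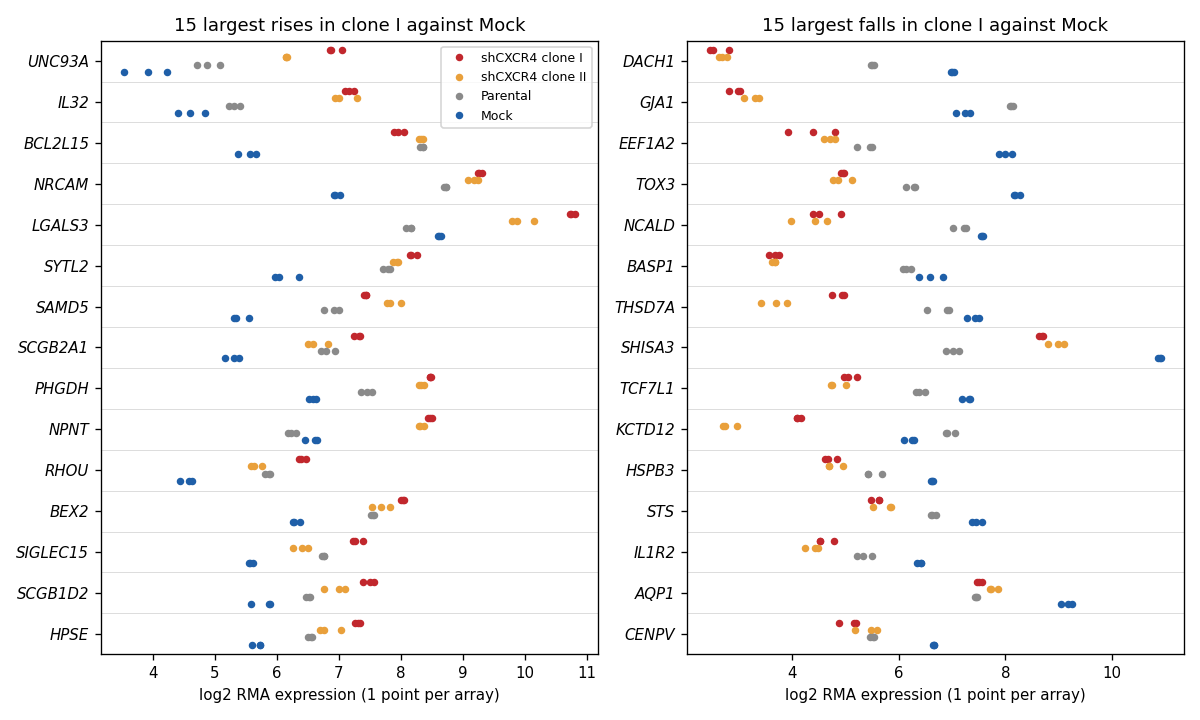
Log2 RMA expression on each of the 12 arrays for the 15 genes with the largest rise (left) and the 15 with the largest fall (right) in clone I against Mock, 1 point per array, coloured by group. Clone I points lie outside the Mock range for all 30 genes because only separate genes were eligible. For several, such as BCL2L15, NRCAM and AQP1, the Parental points lie close to clone I.

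The largest falls brought transcripts to the low end of the scale. DACH1, a transcriptional repressor of the retinal determination network, read 2.52, 2.45 and 2.82 in the clone I arrays, against 7.04, 6.99 and 7.0 in the Mock arrays (-4.41, SE 0.09, adjusted p = 2.5e-12, limma). GJA1, the gene of the gap junction protein connexin 43, read 2.81, 3.03 and 2.99 in the clone I arrays, against 7.24, 7.33 and 7.08 in the Mock arrays, a difference of -4.27, and Parental was higher still at 8.11. In both genes the clone I values lay under the array medians of 4.25 to 4.39, where a difference of logs may understate the change. Both were as low in clone II, at 2.7 for DACH1 and 3.25 for GJA1. All 3 probe sets of DACH1 fell.

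EEF1A2, a tissue-restricted form of the translation elongation factor eEF1A, fell by 3.63 against Mock and by less against Parental (-1.02), since Mock, at 8.0, was well above Parental, at 5.39. Its clone I arrays scattered more than those of other leading genes, at 4.8, 3.92 and 4.39. TOX3, a high mobility group factor, fell by 3.26, NCALD, the neuronal calcium sensor neurocalcin delta, by 2.96, and BASP1, a membrane-bound signalling protein of growing axons, by 2.93. THSD7A, a thrombospondin-domain membrane protein, fell by 2.52 on all 4 of its probe sets, and KCTD12, an auxiliary subunit of GABA-B receptors, by 2.1. These 2 genes were lower still in clone II, where clone I exceeded it by 1.21 for THSD7A and 1.32 for KCTD12. TCF7L1, a transcription factor at the end of the Wnt pathway, read 5.21, 5.05 and 4.96 in the clone I arrays, against 7.19, 7.32 and 7.33 in the Mock arrays.

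Readings that depend on the control were present among the falls as well. SHISA3, an inhibitor of Wnt and FGF receptor maturation, fell by 2.22 against Mock (8.7, 8.68 and 8.62 in the clone I arrays, against 10.89, 10.92 and 10.86 in the Mock arrays) but stood 1.66 above Parental. AQP1, a water channel, fell by 1.64 against Mock and did not differ detectably from Parental (0.06, adjusted p = 0.694, limma). STS, steroid sulfatase, fell by 1.88 on all 4 probe sets and lies near the start of the X chromosome. HSPB3, a small heat shock protein, fell by 1.92, IL1R2, the decoy receptor of interleukin 1, by 1.78, and CENPV, a centromere protein, by 1.58. Of the 15 falls, 13 also passed against Parental in the same direction, 7 had a Parental mean nearer to clone I than to Mock, and all 15 were at least 2-fold below Mock in clone II. As for the rises, these counts reuse the clone I or Mock arrays on which the genes were chosen.

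Chemokines that act through CXCR2, the receptor by which neutrophils follow a gradient, formed with their receptor genes the list with the largest share of rises among those examined. The lists were chosen with earlier results of these data known, so this rank is a description. Of the 7 chemokines measured 4 rose and 0 fell. These 4 were the members with a level of at least 6 in a group. CXCL8 and CXCL1 reached that level in clone I and not in Mock, so the match of level and rise is partly built in. CXCL8, interleukin 8, read 6.08, 6.05 and 6.0 in the clone I arrays, against 4.4, 4.5 and 4.43 in the Mock arrays, a 3.03-fold rise (1.6, SE 0.06, adjusted p = 1.53e-09, limma). CXCL1 read 6.63, 6.76 and 6.66 in the clone I arrays, against 5.32, 5.4 and 5.52 in the Mock arrays (1.27, SE 0.13, adjusted p = 1.24e-05, limma). In both genes every clone I array lay above every array of the other groups.

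CXCL3 read 7.97, 7.97 and 7.97 in the clone I arrays, against 6.8, 6.85 and 6.86 in the Mock arrays, a rise of 1.13, and CXCL2 read 8.35, 8.45 and 8.4 in the clone I arrays, against 7.81, 7.79 and 7.76 in the Mock arrays, a rise of 0.61. The receptor gene CXCR2 rose by 0.29 at a low level, 2.64 in clone I and 2.35 in Mock, and this call ended after centring (adjusted p = 0.0631, limma). CXCL5, CXCL6, PPBP and CXCR1 did not pass the test, with differences of -0.12, -0.14, -0.04 and 0.17, and the first 3 were near the bottom of the scale, at a mean of 2.01 to 2.12 in clone I. Clone I exceeded clone II for CXCL8 by 1.63, for CXCL1 by 1.58, for CXCL2 by 1.05 and for CXCL3 by 0.90 (adjusted p = 2.37e-08, 8.92e-06, 6.56e-05 and 0.000195, limma). It also exceeded Parental for the same 4 genes, by 1.01, 2.01, 1.01 and 1.0. CXCL1, CXCL2 and CXCL3 are close in sequence, and how far their probe sets share signal was not tested.

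The promoters of 6 of these chemokine genes are shown because they hold a common motif while 4 of the 6 genes rose. The 9 letters GGAATTTCC, a match to the motif of the NF-kappaB factors and given in capitals, were searched on both strands in the 250 bases before the start site. They occur in 145 of 35116 RefSeq promoters (0.413%) and once in each of these 6. The sequences are RefSeq's on GRCh38.p14, 60 bases each, read 5′ to 3′ on the strand of the gene.
CXCL8 (chr4:73740448-73740507, plus strand): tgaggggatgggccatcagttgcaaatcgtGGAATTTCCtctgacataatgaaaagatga
CXCL1 (chr4:73869285-73869344, plus strand): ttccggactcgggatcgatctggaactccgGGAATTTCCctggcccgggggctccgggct
CXCL2 (chr4:74099243-74099302, minus strand): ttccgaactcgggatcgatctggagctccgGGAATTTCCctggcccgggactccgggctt
CXCL3 (chr4:74038738-74038797, minus strand): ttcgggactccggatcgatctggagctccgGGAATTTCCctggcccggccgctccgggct
CXCL5 (chr4:73998738-73998797, minus strand): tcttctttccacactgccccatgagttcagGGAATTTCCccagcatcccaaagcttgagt
CXCL6 (chr4:73836559-73836618, plus strand): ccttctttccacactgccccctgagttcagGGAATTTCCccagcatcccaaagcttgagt

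The motif starts 91 bases before the start site of CXCL8, 78 before those of CXCL1 and CXCL3, 77 before that of CXCL2, 90 before that of CXCL5 and 89 before that of CXCL6. The letters TGANTCA, a match to the AP-1 motif found in 6.57% of the promoters, occur 137 bases before the start of CXCL8 and in none of the other 5 windows. These matches describe the letters alone, and no binding was measured.

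**Figure D2:**
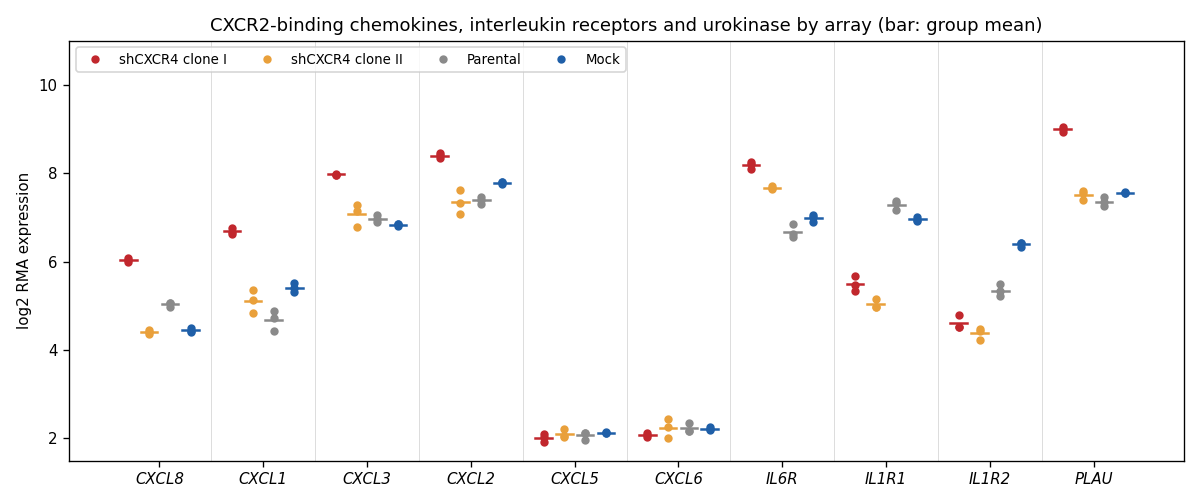
Log2 RMA expression by array for 6 CXCR2-binding chemokines, 3 interleukin receptor genes and PLAU, with groups ordered clone I, clone II, Parental and Mock and a bar at each group mean. Clone I lies above the other groups for CXCL8, CXCL1, CXCL3, CXCL2, IL6R and PLAU and below Mock for IL1R1 and IL1R2, and CXCL5 and CXCL6 lie near 2 in all groups.

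Among 28 cytokine receptors 4 rose and 4 fell, and after centring each array 2 rose and 8 fell. IL6R, the ligand-binding chain of the interleukin 6 receptor, read 8.26, 8.1 and 8.21 in the clone I arrays, against 7.06, 6.89 and 7.01 in the Mock arrays, a rise of 1.2 (SE 0.09, adjusted p = 4.81e-07, limma). IL1R1, the signalling receptor of interleukin 1, read 5.68, 5.47 and 5.33 in the clone I arrays, against 7.01, 6.91 and 6.94 in the Mock arrays, a fall by 1.46 (SE 0.09, adjusted p = 1.4e-07, limma), and its decoy IL1R2 fell as given above. Both interleukin 1 receptors were thus lower in all 3 clone I arrays than in any Mock array. LIFR, the receptor of leukemia inhibitory factor, fell by 0.93, and IL13RA1, a chain of the interleukin 13 receptor encoded on the X chromosome, rose by 0.65. IL4R fell by 0.65 against Mock and was higher than Parental by 0.58.

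Of 29 other cytokines 5 rose, IL32 the most, and 4 fell (2 and 4 after centring). IL6, a cytokine that many ovarian cancer cells secrete, fell by 0.77 at a low level, 3.96 in clone I and 4.73 in Mock. Of 23 NF-kappaB pathway genes and targets 5 rose and 6 fell (2 and 8 after centring). NFKBIZ, an atypical inhibitor of NF-kappaB, rose by 0.57, and TNIP1, which binds the inhibitor A20, fell by 0.64. IKBKG, the NEMO subunit of the kinase complex, rose by 0.53 and lies on the X chromosome. The subunit genes NFKB1 (-0.15, adjusted p = 0.135, limma) and RELA (-0.07, adjusted p = 0.532, limma) did not pass, and NFKB2 fell by 0.47.

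In the integrin and matrix lists more genes rose than fell. Dim genes as a whole did so too (7.52% up, 2.92% down), and 10 of the 25 integrin genes reached a mean of 6 in a group. Of 25 integrin genes 6 rose and 0 fell, 4 and 0 after centring, and against Parental 4 were higher and 3 lower. ITGA5, the alpha chain of the fibronectin receptor, read 8.18, 8.1 and 8.08 in the clone I arrays, against 6.9, 7.08 and 7.18 in the Mock arrays, a rise of 1.07 (SE 0.09, adjusted p = 2.38e-06, limma). ITGB8, a partner of alphav that activates latent TGF-beta, rose by 1.46 against Mock but was -0.72 relative to Parental. ITGA2, the alpha chain of a collagen receptor, rose by 0.26, and ITGB1, the most widely shared beta chain, did not pass (-0.05, adjusted p = 0.606, limma). The other 3 rises, ITGA10, ITGA11 and ITGAM, were of genes under a mean of 5.

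Of 45 other matrix genes 11 rose and 3 fell, and of the 11 at a level of at least 6 in a group, 7 rose and 1 fell. After centring, 9 of the 45 rose and 5 fell. CCN3, a matricellular protein of the CCN family, read 9.01, 8.9 and 8.94 in the clone I arrays, against 7.69, 7.75 and 7.66 in the Mock arrays, a rise of 1.25, and clone I stood 1.24 above clone II. FBN1, fibrillin-1 of elastic microfibrils, rose by 1.04. VCAN, the proteoglycan versican, rose by 0.78 against Mock and was -0.48 relative to Parental. Of 43 collagen genes 4 rose and 2 fell, and the 9.3% that rose were near the 8.45% of all genes. COL4A4, a basement membrane chain, rose by 1.2 against Mock, with a difference of -0.07 from Parental (adjusted p = 0.878, limma), and COL6A1 fell by 0.91.

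Among proteases, PLAU, the urokinase plasminogen activator, read 9.04, 8.94 and 9.01 in the clone I arrays, against 7.57, 7.56 and 7.55 in the Mock arrays, a 2.7-fold rise (1.43, SE 0.07, adjusted p = 2.16e-08, limma). It was higher than in clone II by 1.48 and than in Parental by 1.64. Its receptor gene PLAUR did not pass (0.18, adjusted p = 0.158, limma), and of 34 genes of this list 4 rose and 1 fell (11.8% up, 2 genes after centring). Of 65 metalloproteinases and inhibitors 8 rose and 2 fell (12.3% up, against 8.45% of all genes), 4 rose after centring, and against Parental 3 were higher and 4 lower. MMP7, matrilysin, rose by 0.67, to 11.91 in clone I, against 11.23 in Mock. MMP1, interstitial collagenase, rose by 1.36 against Mock at a low level and was -0.42 relative to Parental.

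In the lists of cell-cell contact genes more members rose than fell, as dim genes as a whole did (7.52% up, 2.92% down). A mean of 6 in a group was reached by 13 of 32 immunoglobulin, 7 of 74 cadherin and 15 of 42 junction genes. Of 32 immunoglobulin adhesion molecules 4 rose and 0 fell (12.5% changed, against 20.6% of all genes). NCAM1 rose by 1.26 against Mock with a difference of -0.06 from Parental (adjusted p = 0.742, limma). Of 74 cadherins and protocadherins 11 rose and 2 fell, 5 rose after centring, and against Parental 4 were higher and 5 lower. CDH1, E-cadherin, rose by 0.28 and lay 0.97 above clone II but -0.59 relative to Parental. Of 42 junction genes 7 rose and 2 fell, with 4 rises after centring, the falls being GJA1 and CLDN16, a tight junction claudin (-1.11). CLDN3 rose by 0.45 and CGN, the tight junction adaptor cingulin, by 0.60.

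Of 46 keratins and epithelial genes 8 rose and 3 fell, but after centring 5 rose and 5 fell. MUC1, an epithelial mucin, read 9.83, 9.56 and 9.45 in the clone I arrays, against 8.61, 8.54 and 8.72 in the Mock arrays, a rise of 0.99 (SE 0.09, adjusted p = 6.72e-06, limma). KRT7, a keratin of simple epithelia, fell by 0.67 against Mock and was 0.19 relative to Parental. Of 25 genes of mesenchymal transition 3 rose and 3 fell (1 and 4 after centring), and VIM, vimentin, averaged 11.93 in clone I and 11.91 in Mock (adjusted p = 0.851, limma). In the caveolar genes the 2 main members went opposite ways: CAV1 fell by 0.76, to 5.57 in clone I, against 6.33 in Mock, and CAV2 rose by 1.5, to 9.08 in clone I, against 7.57 in Mock. The differences from Parental were -1.79 for CAV1 and -0.44 for CAV2.

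Of 40 galectins, annexins and S100 proteins 10 rose and 1 fell. Beside LGALS3, S100A2, a calcium-binding protein of squamous epithelia, rose by 0.72. The fall was that of ANXA6, annexin A6 (-0.67).

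Transcription factor families differed from each other. Of 34 KLF, EGR and AP-1 genes, most of them induced within minutes by growth factors or stress, 13 rose and 2 fell. FOS read 7.49, 7.7 and 7.72 in the clone I arrays, against 6.67, 6.69 and 6.79 in the Mock arrays, a rise of 0.92 (SE 0.09, adjusted p = 1.12e-05, limma), and it stood 2.36 above Parental and 1.16 above clone II. EGR1 rose by 0.86, KLF4 by 0.96, KLF6 by 0.61 and JUN by 0.32. IER5, an immediate early gene, fell by 0.69. Among 20 genes of the retinal determination network and the PAX family 1 rose and 5 fell. EYA4, a phosphatase and transcriptional partner in the same network as DACH1, read 3.13, 2.49 and 2.96 in the clone I arrays, against 5.39, 5.6 and 5.51 in the Mock arrays, and EYA3 fell by 0.51. EYA3 lies in a stretch of chromosome 1 with many falls, described below.

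SOX9, a factor of ductal and chondrocyte lineages, fell by 1.41 against Mock, and its difference from Parental was -0.04 (adjusted p = 0.798, limma). SOX4 rose by 0.50 against Mock and was -0.58 relative to Parental. Of 28 HOX genes 2 rose and 6 fell, whereas after quantile normalization 3 rose and 3 fell. After centring 1 rose and 7 fell, and against Parental 0 were higher and 9 lower. The 6 falls against Mock included neighbours of the HOXB cluster, HOXB8 (-0.75), HOXB6 (-0.46), HOXB7 (-0.44) and HOXB3 (-0.20).

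Signalling receptors moved both ways. Of 38 receptor tyrosine kinases 5 rose and 8 fell. ERBB3, a kinase-impaired receptor of the EGF receptor family that binds neuregulins, read 6.39, 6.25 and 6.25 in the clone I arrays, against 5.39, 4.91 and 5.13 in the Mock arrays, a rise of 1.16 (SE 0.13, adjusted p = 3.2e-05, limma). ERBB4, another neuregulin receptor, fell by 1.06, ERBB2 fell by 0.27 and EGFR rose by 0.37, so all 4 members of the family changed. Against Parental these differences were 0.90 for ERBB3, -1.59 for ERBB4, -0.15 for ERBB2 and -0.23 for EGFR. FGFR4 fell by 0.64, and MET, the hepatocyte growth factor receptor, did not pass (0.03, adjusted p = 0.832, limma). KIT, the stem cell factor receptor, rose by 0.83 against Mock and was -2.13 relative to Parental. TGFA, a ligand of EGFR, rose by 1.22 against Mock, with a difference of -0.08 from Parental (adjusted p = 0.622, limma).

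The Wnt, TGF-beta and Notch lists held more falls than rises. Of 57 Wnt genes 2 rose and 9 fell, and besides TCF7L1 the receptors FZD1 (-1.0) and FZD2 (-0.84) were lower. CTNNB1, beta-catenin, fell by 0.24, and AXIN2, a target gene of the pathway, did not pass (0.12, adjusted p = 0.616, limma). Of 62 TGF-beta and BMP genes 5 rose and 13 fell, with 19 falls after centring. SKIL, a repressor of SMAD signalling and itself a target of it, read 6.92, 6.9 and 6.7 in the clone I arrays, against 7.76, 7.87 and 7.91 in the Mock arrays, a fall by 1.0 (SE 0.09, adjusted p = 3.44e-06, limma). SMAD6, an inhibitor of BMP signals, fell by 0.78, SMAD3 by 0.44 and INHBB, a subunit of activin B, by 0.58, and NOG, the BMP antagonist noggin, rose by 1.13 at a low level. Of 34 Notch genes 1 rose and 6 fell, among them the ligand JAG1 (-0.45) and the receptor NOTCH1 (-0.35). After quantile normalization 3 Notch genes fell, and the call of NOTCH1 ended (-0.248, adjusted p = 0.125, limma). Against Parental 3 Notch genes were higher and 3 lower. At or above 6, a level at which 24.2% of all genes fell, 6 of 15 Notch, 6 of 18 Wnt and 13 of 27 TGF-beta genes fell. These were all of the Notch and TGF-beta falls and 6 of the 9 Wnt falls.

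**Figure D3:**
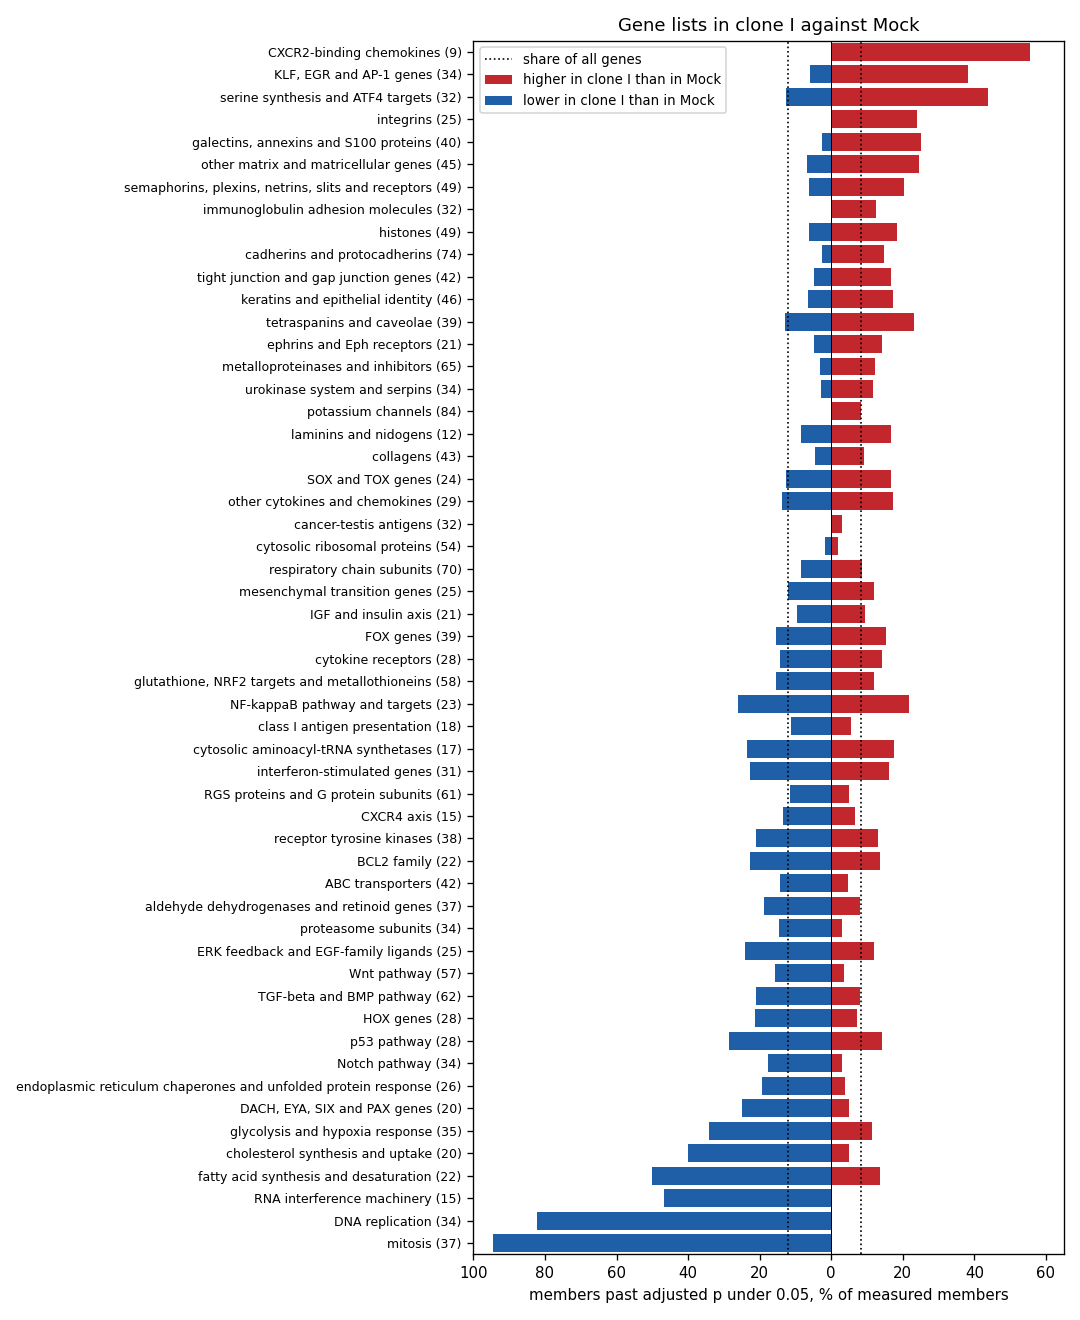
Share of the measured members of each of 54 gene lists that rose (bars to the right) or fell (bars to the left) in clone I against Mock, in percent, with the number measured in brackets. Dotted lines mark the shares of all genes, 8.45% up and 12.2% down; the CXCR2-binding chemokines, listed with CXCR1 and CXCR2, stand at the top, and the RNA interference, replication and mitosis lists at the bottom.

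Enzymes of serine synthesis and target genes of ATF4, the transcription factor of the amino acid response, showed many rises. Of 32 genes 14 rose and 4 fell, and after centring the arrays 9 rose. Against Parental 7 were higher and 3 lower, so the number of rises depends on the control. ASNS, asparagine synthetase, read 9.66, 9.73 and 9.71 in the clone I arrays, against 8.17, 8.21 and 8.12 in the Mock arrays, a 2.89-fold rise (1.53, SE 0.07, adjusted p = 3.16e-09, limma). Where probe sets that may match several transcripts were left out, ASNS was read on another probe set and did not pass (0.095, adjusted p = 0.456, limma). On the probe sets read here ASNS and PHGDH stood apart from the rest, and the other rises were smaller: TRIB3 0.63, CHAC1 0.62, STC2 0.62, DDIT3 0.52 and ATF4 itself 0.27. Against Parental, ASNS (0.96) and PHGDH (1.03) were higher while TRIB3 was not (-0.15, adjusted p = 0.146, limma). The next enzymes of the serine path did not pass, PSAT1 with a difference of 0.04 at a level of 12.05 in clone I and PSPH with 0.26. CTH, of the transsulfuration path to cysteine, and CEBPB, a partner of ATF4, fell by 0.54 and 0.66.

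Lipid synthesis genes fell more often than they rose, as all genes at or above 6 did (24.2% down, 9.65% up). Of 22 genes of fatty acid synthesis and desaturation 11 fell and 3 rose, with 9 falls and 1 rise among the 15 at or above 6. ELOVL6, an elongase of palmitate, read 8.1, 7.96 and 8.09 in the clone I arrays, against 8.72, 8.8 and 8.77 in the Mock arrays, a fall by 0.71 (SE 0.08, adjusted p = 2.63e-05, limma). SCD, the main stearoyl-CoA desaturase, fell by 0.65, ME1, malic enzyme, by 0.47, and FASN, fatty acid synthase, by 0.42. Against Parental, ELOVL6 (-0.47) and ME1 (-0.43) were lower too, whereas SCD (-0.14, adjusted p = 0.35, limma) and FASN (-0.12, adjusted p = 0.594, limma) did not pass.

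Of 20 cholesterol genes 8 fell and 1 rose, with 5 falls after quantile normalization and 11 after centring. Against Parental 13 of the 20 were lower and 0 higher, with a median difference of -0.45, beside -0.18 against Mock. All 8 falls were among the 18 genes at or above 6, a level at which 24.2% of all genes fell. The rise was that of NSDHL (0.31), a sterol dehydrogenase encoded on the X chromosome. SQLE, squalene epoxidase, fell by 0.36 and ACAT2, the acetoacetyl-CoA thiolase, by 0.45. Of 35 glycolysis and hypoxia genes 4 rose and 12 fell, but against Parental 7 were higher and 3 lower. Among the 30 of them at or above 6, 11 fell. NDRG1, a hypoxia and stress response gene, rose by 0.92, PFKM, a phosphofructokinase, fell by 0.50, and LDHA, lactate dehydrogenase, did not pass (0.04, adjusted p = 0.655, limma).

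**Figure D4:**
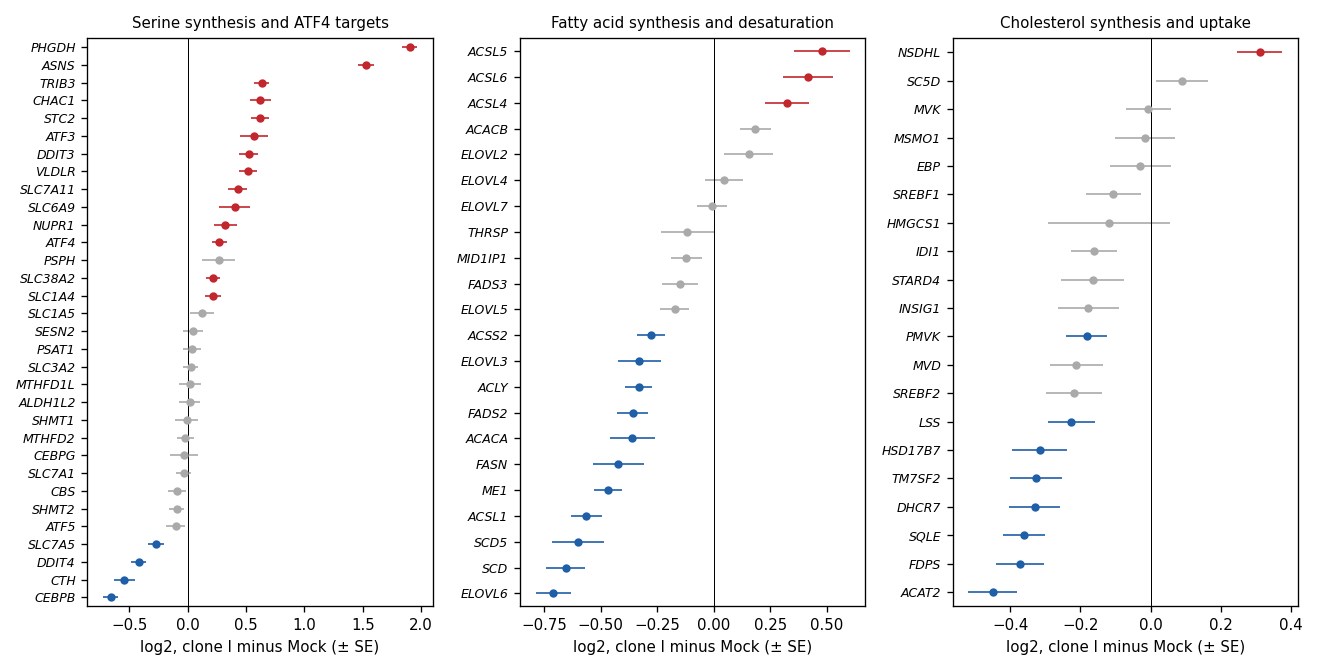
Log2 difference of clone I minus Mock for every measured gene of 3 metabolic lists, with limma's SE as bars, in red for a rise, in blue for a fall and in grey for genes that did not pass. PHGDH and ASNS stand far to the right in the serine and ATF4 list, and most coloured points of both lipid lists lie left of 0.

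Of 58 genes in the list of glutathione, NRF2 targets and metallothioneins 7 rose and 9 fell, and after quantile normalization 11 rose and 6 fell. Among the falls were MT2A and MT1X, of the metallothioneins, small proteins that bind zinc and copper. MT2A read 7.29, 7.35 and 7.28 in the clone I arrays, against 8.14, 8.3 and 8.31 in the Mock arrays, a fall by 0.94 (SE 0.08, adjusted p = 2.75e-06, limma), and MT1X fell by 0.86. These genes are near-identical in sequence, and how far their probe sets share signal was not tested. GPX2, the glutathione peroxidase of epithelia, rose by 1.16. Of 37 aldehyde dehydrogenases and retinoid genes 3 rose (8.11%) and 7 fell (18.9%). Of the 2 main retinaldehyde dehydrogenases, ALDH1A3 rose by 1.45, to 6.53 in clone I, against 5.08 in Mock, and ALDH1A1 fell by 0.62, to 8.99 in clone I, against 9.61 in Mock. Against Parental these differences were 2.04 for ALDH1A3 and -1.91 for ALDH1A1.

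Genes of the RNA interference machinery fell or did not pass the test. Of 15 genes 7 fell and 0 rose, and the falls were 3 after quantile normalization and 2 against Parental. All 7 falls were among the 13 genes at or above 6, a level at which 24.2% of all genes fell. DROSHA, the nuclear enzyme that cuts primary microRNAs, fell by 0.36, DICER1 by 0.30, AGO2, the Argonaute that cuts target RNA, by 0.29, and TNRC6A, a silencing partner of Argonautes, by 0.50. Another of the 7 falls was of an Argonaute gene in the stretch of chromosome 1 with many falls, described below. Against Parental, TNRC6A was lower (-0.45) and AGO2 was not (0.05, adjusted p = 0.79, limma). After quantile normalization the calls of AGO2, DICER1 and DROSHA ended (adjusted p = 0.126, 0.118 and 0.0803, limma), and with the mean of probe sets those of TNRC6A (-0.118, adjusted p = 0.118, limma) and DICER1 (-0.053, adjusted p = 0.579, limma).

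Survival genes moved both ways. Of 22 BCL2 family genes 3 rose and 5 fell, 3 and 2 after quantile normalization. PMAIP1, the death-promoting protein NOXA, rose by 0.60, BAX fell by 0.27, and MCL1 (0.05, adjusted p = 0.712, limma) and BCL2L1 (0.08, adjusted p = 0.529, limma) did not pass. Of 28 p53 pathway genes 4 rose and 8 fell (28.6%), and 27 were at or above 6, where 24.2% of all genes fell. CDKN1A, the cell cycle inhibitor p21, averaged 9.12 in clone I and 9.09 in Mock (adjusted p = 0.781, limma). Of 42 ABC transporters 2 rose and 6 fell, shares of 4.76% and 14.3% against 8.45% and 12.2% of all genes. The falls were led by ABCB1, the multidrug pump P-glycoprotein, which fell by 1.03 at a low level, 2.74 in clone I and 3.77 in Mock.

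Few ribosomal protein genes changed. Of 54 cytosolic ribosomal protein genes 1 rose and 1 fell (3.7% changed, against 20.6% of all genes), with a median difference of 0.00, and the rise was that of RPL36A, which lies on the X chromosome. The gene that fell lies in the stretch of chromosome 1 with many falls, described below. Of 70 respiratory chain genes 6 rose and 6 fell, 17.1% in all and near the share of all genes, and the largest rises, COX7B (0.61) and NDUFA1 (0.49), are both of X-linked genes. After centring 2 rose and 12 fell. Of 34 proteasome genes 1 rose, the X-linked PSMD10 (0.42), and 5 fell, led by PSMB9 of the immunoproteasome (-0.82), whose difference from Parental was 0.04 (adjusted p = 0.84, limma). After centring 12 proteasome genes fell. Of 18 class I antigen presentation genes 1 rose and 2 fell, and against Parental 5 were higher and 0 lower. The cell division lists stood at the other end. Of 37 mitotic genes 35 fell and 0 rose, and of 34 replication genes 28 fell and 0 rose.

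Position on the chromosomes went with the direction of change on the X. Genes with a mean of at least 6 over the 12 arrays were ordered along each chromosome by their RefSeq order, which placed 8338 genes, and were cut into windows of 20 genes. On the X, 119 of 262 such genes rose (45.4%) and 30 fell (11.5%), against 8.04% up and 24.5% down on the autosomes, of which no single one had more than 11.7% up. Of the 418 windows over all chromosomes, 7 had at least 10 genes that rose, and 6 of these 7 were on the X. These were the last 6 windows of that chromosome, which run without a gap from TAF9B to VBP1.

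In these 120 genes 94 rose, 2 fell and 105 were separate with clone I above Mock, and the median difference was 0.37. The mean log2 level over the 120 genes was 8.50, 8.50 and 8.47 in the clone I arrays, against 8.09, 8.13 and 8.10 in the Mock arrays. Parental arrays lay at 8.06, 8.07 and 8.06, beside Mock, and clone II arrays lay nearer to clone I, at 8.36, 8.39 and 8.47. The 120 genes between TRAPPC2 and PGK1 held 22 rises and 17 falls, with a median of -0.04. The 7 neighbours PHKA1 to COX7B near the end of that stretch all rose, by 0.25 to 0.61, so the limit at TAF9B is that of the windows. The first 20 genes of the X, GTPBP6 to RAB9A, went the other way, with 11 down, 1 up and a median of -0.33, and the fall of STS belongs to this stretch. In this stretch the mean level was 7.48, 7.46 and 7.46 in the clone I arrays, against 7.87, 7.89 and 7.89 in the Mock arrays, with no overlap.

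Of all 1671 genes that rose, 167 lie on the X (9.99%), although the X holds 3.52% of the genes tested. The windows were chosen after their values were seen and have no test of their own. Among the 14 rises of the serine and ATF4 list, the 4 of the CXCR2-binding chemokines and the 6 of the integrins none was X-linked.

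Chromosome 1 had a weaker stretch in the other direction. The first 12 windows, 240 genes from LINC01128 to RRAGC, held 119 falls (49.6%) and 15 rises, with a median of -0.23, and the other 623 genes of the chromosome held 139 falls and 61 rises, with a median of -0.08. The mean log2 level of the 240 genes was 7.80, 7.79 and 7.78 in the clone I arrays, against 7.96, 8.02 and 8.02 in the Mock arrays. In clone II it was 7.93, 7.93 and 7.99 and in Parental 7.95, 7.95 and 7.95, so clone I was below all 3 other groups. The stretch was picked by the difference from clone II after the values were seen, so this order is a description. Falls also gathered elsewhere. Of the 418 windows, 13 had at least 10 genes that fell, and some of these lay on chromosomes 17 and 19. The window from MTMR4 to TLK2 on chromosome 17 held 13 falls. On chromosome 19 as a whole 31.5% of the genes fell, against 29.9% on chromosome 1.

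**Figure D5:**
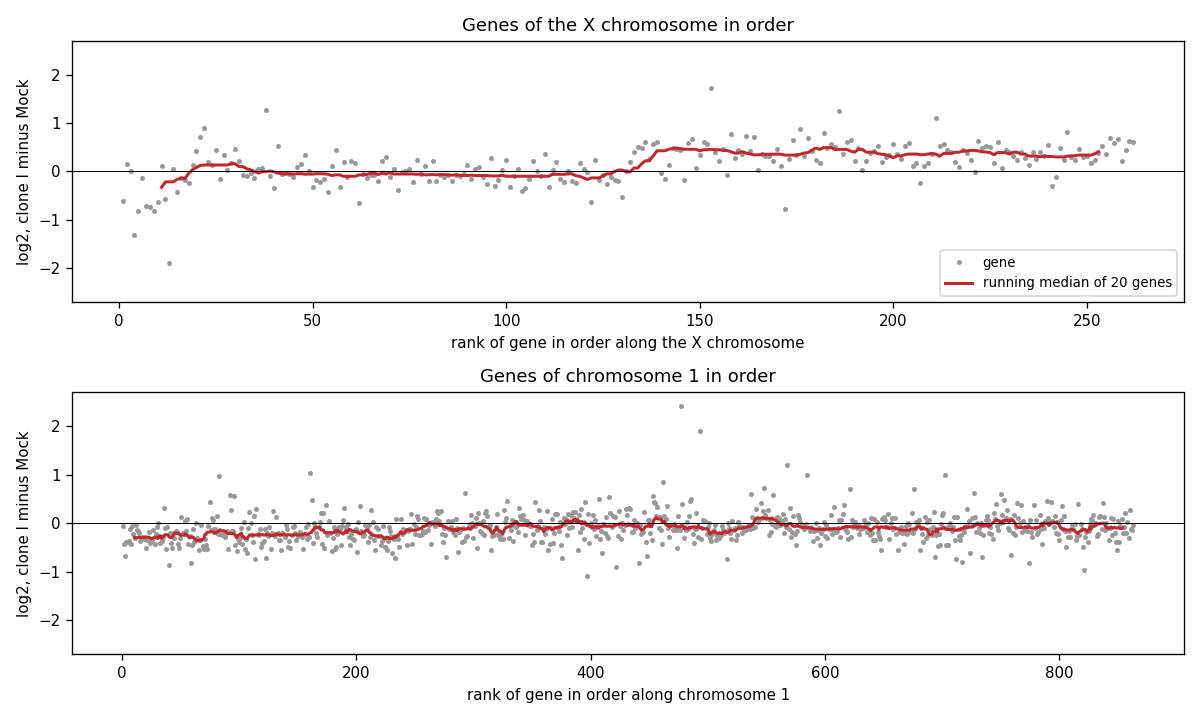
Log2 difference of clone I minus Mock for genes with a mean of at least 6, in their order along the X chromosome (top) and chromosome 1 (bottom), with the running median of 20 genes as a line. On the X the line runs below 0 at the left end, near 0 through the middle and at about 0.4 over the last 120 genes, and on chromosome 1 it lies lowest over the first 240 genes.

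The difference between clone I and clone II is taken between their own arrays, with a variance pooled over all 12. Clone I differed from clone II in 1031 genes (5.21%), 704 higher and 327 lower in clone I, and 39 at least 2-fold, but leaving out any single clone I array reduced this count to between 528 and 603, and without clone II arrays 1, 2 and 3 it was 644, 595 and 1225. Against Parental 2868 genes differed (14.5%). SELENOP, the selenium carrier selenoprotein P, read 5.99, 6.03 and 6.03 in the clone I arrays, against 3.86, 4.11 and 4.56 in the clone II arrays, a difference of 1.84 (SE 0.14, adjusted p = 4.3e-06, limma). LEMD1, a nuclear envelope LEM domain protein, differed by 1.69. SLPI, a secreted inhibitor of leukocyte proteases, read 10.89, 10.91 and 10.93 in the clone I arrays, against 9.13, 9.24 and 9.35 in the clone II arrays, a difference of 1.67, while its difference from Mock, 0.15, did not pass (adjusted p = 0.163, limma). CXCL8 and CXCL1 complete the 5 largest differences. The 5 largest differences in each direction passed the test without any single clone II array as well, a setting chosen after the data were seen.

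In the other direction CKB, brain-type creatine kinase, read 7.09, 6.88 and 6.99 in the clone I arrays, against 7.79, 7.81 and 7.75 in the clone II arrays, a difference of -0.79 (SE 0.08, adjusted p = 4.15e-05, limma), and it fell against Mock by 1.54. SYBU, the kinesin adaptor syntabulin, MFAP2, a microfibril glycoprotein, the divergent transcript ZDHHC12-DT and GLIS3, a zinc finger factor, were also lower in clone I, with differences from clone II of -0.76, -0.69, -0.65 and -0.64 on the log2 scale. MFAP2 rose against Mock (0.27) while it was lower than in Parental (-0.35).

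Several probe sets per gene give a check within the arrays. Of the 4081 changed genes 2591 have more than 1 probe set, and in 1215 of these another probe set passed in the same direction while in 57 another passed in the opposite one. Among the 151 genes changed at least 2-fold, 104 have more than 1 probe set, 82 had another that agreed and 0 had one that passed in the opposite direction. In 45 of the 151 the higher group had a mean under 6, among them EYA4 and MMP1, where intensities are near the lower end of the scale and a difference of logs may understate the change.

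Some named changes rest on 1 probe set. Where probe sets that may match several transcripts (named _x_at or _s_at) were left out, 4 genes described above as lower turned round without passing the test: ANXA6 read 0.16, COL6A1 0.11, KRT7 0.17 and SMAD6 0.001. COL6A1 also had a probe set that passed in the opposite direction (0.29, adjusted p = 0.0102, limma). Under the same setting the calls of ASNS, LGALS3, SELENOP, TNIP1, EGFR, NSDHL, HOXB6, HOXB8 and GNAI3 ended, since these genes were then read on another probe set, and those of HOXB3 and ITGAM ended on the same probe set (adjusted p = 0.0661 and 0.0532, limma). The differences from Mock were then 0.095 for ASNS, 0.11 for LGALS3 and 0.007 for SELENOP. Among the 147 named genes other than CXCR4 that changed, 20 lost the call when 1 of the 6 arrays was left out: AGO2, BAX, CD3E, CD74, CDH1, CDH5, CTNNB1, CXCR2, DICER1, EPCAM, ERBB2, FASN, GNAI3, HOXB3, ITGA11, ITGA2, ITGAM, MFAP2, NOTCH1 and SYBU. By array, the calls lost were 9, 12 and 14 without clone I arrays 1, 2 and 3, and 5, 15 and 10 without Mock arrays 1, 2 and 3. Other settings ended further calls: centring those of ATF4, CDH1, CXCR2, EPCAM, ITGA2, ITGAM and MFAP2, quantile normalization those of AGO2, BAX, DICER1, DROSHA, ERBB2, FASN, GNAI3, HOXB3, ITGAM and NOTCH1, and the mean of probe sets those of CD74, COL6A1, CTNNB1, DICER1, HOXB3, ITGA11, ITGA2, KRT7, NOTCH1, PECAM1 and TNRC6A.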

How the data were processed

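RNA was measured on 12 Affymetrix arrays, 3 each of clone I, clone II, Parental and Mock. The authors deposited log2 values, made with RMA in R 2.6.0 per the submitters' processing notes; its background step and chip definition are not stated there. Scanner files are not used here, and the number of arrays limits the precision. The platform annotation gives 41097 probe sets with 1 gene symbol, 1801 with several and 11777 with none; 41091 remained without controls, and 41037 matched the gene table by Entrez number. For each of 19775 genes the probe set of highest average level was read.

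limma 3.58.1 in R 4.3.3 was fitted to all 12 arrays (group means, 8 residual and 5.67 prior degrees of freedom), with Benjamini-Hochberg adjustment over 41091 probe sets and a threshold of 0.05, and was tested on simulated data. No replicate block was used: same-numbered clone I and Mock arrays deviated with correlations of -0.03, 0.15 and -0.04. Genes were named by a rule: CXCR4, the 15 largest changes each way with no overlap and a mean of at least 6, the 6 largest changed members of each of 58 gene lists, well-known members that did not pass, and the 5 largest differences each way from clone II. Not all genes that the rule names are described in the text. The members and lists were chosen with earlier results of these data known. RefSeq (GRCh38.p14) gave gene order and promoters. The alternatives were the mean of probe sets, probe set and level filters, scaling, variance settings, thresholds, Parental as control and leaving out each array. Figures used Python 3.11.15 with pandas 2.3.3, numpy 2.4.6 and matplotlib 3.10.9.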

Additional observations from a re-analysis of the deposited data

Results flagged for a closer look

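The groups of 3 arrays were not tested for single outlying values. In limma's array weights, clone II arrays 1 and 3 had the lowest, 0.503 and 0.564, against 1.681 for clone II array 2, and with these weights 1383 genes differed between the clones. The effect of the knockdown clones relative to Mock differed between clone I and clone II in 1031 genes by the limma test of the difference (adjusted p under 0.05). The 10 genes with the largest such differences under the naming rule stand out. Clone I exceeded clone II for SELENOP by 1.84, for LEMD1 by 1.69, for SLPI by 1.67, for CXCL8 by 1.63 and for CXCL1 by 1.58 on the log2 scale. The differences were -0.79 for CKB, -0.76 for SYBU, -0.69 for MFAP2, -0.65 for ZDHHC12-DT and -0.64 for GLIS3. Against Mock, clone I was higher and clone II lower for SELENOP (6.02 in clone I, 4.18 in clone II and 5.0 in Mock) and for LEMD1 (6.19 in clone I, 4.5 in clone II and 5.29 in Mock).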

How the results depend on the processing

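Of the 21 alternatives to the values given above, a minimum fold of 1.2 left 656 changed genes (and 656 separate ones) and an adjusted p under 0.01 left 2146 (2146 separate), and averaging the probe sets of each gene gave 95 genes of at least 2-fold in place of 151. The other alternatives kept these 3 counts within 1.5 times. Leaving out each clone I or Mock array gave 2753 to 3734 changed genes, 2752 to 3733 of them separate, and 148 to 154 of at least 2-fold, and CXCR4 differences of -1.53 to -1.46. Clone I against clone II moved from 1031 genes to 1818 with a mean of at least 6 in a group, 1681 in the upper 50% by mean, 1675 with a trended and robust variance, 106 with the minimum fold and 419 at 0.01, and to 528 to 1225 without single arrays of clone I, clone II or Mock, clone II having been added after the data were seen. With the replicate number as a block 3784 genes changed, 151 at least 2-fold and 3737 separate, 855 differed from clone II, and the CXCR4 difference was -1.49; same numbers do not pair these arrays.

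Against Parental in place of Mock the sign turned for 21 changed genes: AGO2 0.05, AQP1 0.056, ATF4 -0.029, BCL2L15 -0.38, CAV2 -0.44, CDH1 -0.59, COL4A4 -0.067, EGFR -0.23, IL4R 0.58, ITGB8 -0.72, KIT -2.13, KRT7 0.19, MFAP2 -0.35, MMP1 -0.42, NCAM1 -0.059, PSMB9 0.037, SHISA3 1.66, SOX4 -0.58, TGFA -0.075, TRIB3 -0.15 and VCAN -0.48. It turned there also for BCL2L1 (-0.054), CDKN1A (-0.21), CXCR1 (-0.051), PAX8 (-0.014), PPBP (0.045), PSAT1 (-0.024) and PSPH (-0.11), which had not passed. Without _x_at and _s_at probe sets ANXA6 (0.16), COL6A1 (0.11), KRT7 (0.17), SMAD6 (0.001) and CXCL5 (0.15) turned, and CXCL5 also with the mean of probe sets (0.007). Signs of genes that had not passed turned after centring for CDKN1A (-0.037), LDHA (-0.021), MCL1 (-0.02), MET (-0.04), PSAT1 (-0.027) and VIM (-0.043), after quantile normalization for RELA (0.029), and without single arrays for MET (-0.004 to 0.066) and PPBP (-0.099 to 0.03). The cause was not tested. Of the 147 named changed genes 89 kept direction and call in all alternatives other than the change of control, and 22 lost the call under stricter thresholds alone. Of 2436 list counts under the alternatives 1817 stayed within 1.5 times.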
